A study of Mus musculus with 9 samples.

Results

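The step from day 3 to day 5 of an air-liquid interface culture of mouse tracheal basal cells was examined across all genes, using 6 of the 9 libraries of the series, 3 from each of these days. The members are the deposited columns of day 3 and day 5, and a gene was tested if 3 or more of the 6 libraries held 10 or more normalized counts of it. This limit was met by 16359 of 56748 genes. The value that decided was the lowest among a gene's best 3 libraries, and it was 10.3 for Itgb2l, just inside, and 9.99 for Otop3, just outside. All libraries came from wild-type primary airway basal stem cells taken from trachea, and neither treatment nor genotype differed between them. The submitters describe day 3 as a stage of stratification and day 5 as one of luminal cell specification, and the comparison asks which genes change when luminal cells are laid down. Age and strain of the mice are not in the labels, nor is it said that replicates were grown apart or taken from different animals. The p-values therefore speak for the scatter among these libraries alone, and that scatter may be technical.

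The tracheal lining holds basal cells, which sit on the basement membrane and can divide, and luminal cells, which face the air. The main luminal types are secretory (club) cells, which release protective proteins and oxidize inhaled chemicals, and multiciliated cells, which build many centrioles and then motile cilia that beat mucus upwards. In air-liquid interface culture the medium lies under the cell sheet and the upper surface is left dry. Dividing cells first stack into layers and then leave the cycle as luminal types appear.

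Libraries held 16360413 to 24557054 reads. Pearson's r across genes, which are not replicates of each other, was 0.971 to 0.989 for libraries of 1 day and 0.797 to 0.866 for libraries of different days. Transcript length ran with the difference between days: the median log2 difference went from −1.08 in the 2014 genes with the shortest transcripts to 0.38 in the 2014 with the longest. Values after removal of this length and GC trend are therefore given for many lists, and the part of RNA quality or library preparation in them was not tested. Where at least 80% of the last 500 bases of a gene lay under exons of the opposite strand, the median difference was 0.77 (425 genes) against 0.12 in genes with no such bases (12600 genes), and the strand setting of the counting is not known here. Such genes are marked as overlapped in the text, since their reads cannot be told apart from those of the neighbour. Counts of 4 Y-linked transcripts summed to 324 ± 24.2 normalized counts on day 3 and 461 ± 98.3 on day 5, and Xist stood at 5998 ± 507 and 7373 ± 1292 (SD, n = 3).

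The labelled cell type was checked against marker genes. Of 10 basal markers all were detected on both days, and their summed level ran from 410140 to 469580 normalized counts on day 3 and from 232430 to 316550 on day 5. Of 12 fibroblast markers Lum and Thy1 had no read on either day, and Col1a1, Col1a2 and Col3a1 had at most 7 reads in all libraries of a day. The list's summed level of 2788 to 3058 on day 3 and 707 to 938 on day 5 came mostly from Fbln1. Of the 4 that were tested 2 were higher and 2 lower. Vim, an intermediate filament, and Dcn, a proteoglycan of connective tissue, were called higher, Vim from a mean of 2.59 to 51.96 and Dcn with no read on day 3 and 288 reads on day 5. Fbln1 (2909 to 662) and Mgp (48.8 to 14.2) were called lower. Of 18 leukocyte markers Tyrobp, Adgre1, Ms4a1 and Nkg7 had no read on either day and Ptprc had 1 read on day 5. Of the 5 that were tested Lyz2 was higher, and Cd68 (1612 to 163), Itgam (18.2 to 5.58) and Coro1a (12.9 to 2.36) were lower. The summed level of the leukocyte list went from between 2199 and 2296 on day 3 to between 63497 and 81672 on day 5 through Lyz2, a lysozyme that airway epithelium also secretes. Of 17 endothelial, muscle and cartilage markers 5 were tested, of which 2 were higher and 1 lower. The summed level of the list overlapped between days (189 to 321 on day 3 and 224 to 301 on day 5) and came mostly from Sox9 (187 to 171). Vwf (6.46 to 43.0) and Acta2 (6.12 to 21.6) had higher means on day 5, and Col2a1 (27.97 to 6.28) and Pecam1 (16.2 to 8.70) lower ones. The part of such cells in the values below was not tested.

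Differences are day 5 minus day 3 on the scale of log2(normalized count + 1), with the standard error (SE) and the Benjamini-Hochberg adjusted p of limma, and a gene is called higher or lower when that p is below 0.05. Of the 16359 tested genes 5580 were higher on day 5 (34.1%) and 5335 were lower (32.6%), so 66.7% differed in one direction or the other, and the median difference over all tested genes was 0.04. Counts of list members below are read against these shares. Genes with no read on 1 day passed the filter through the other day alone, and could be called only as higher on that other day. The shares of lists that hold many such genes are partly set by the filter. Quantile normalization, which gives every library the same distribution of values, moved the difference by a median of 0.43 in the 1636 tested genes of highest level and by −0.97 in the 1636 of lowest level. Its values are given below where it ended a call or moved a count or median by over 1.5 times. Differences of at least 2-fold made up 3163 of the higher and 2862 of the lower genes, and differences of at least 8-fold 887 and 235. Values per day are normalized counts, as mean ± SD over 3 libraries or, where written as "A to B" alone, as the means of day 3 and day 5. Genes whose 3 libraries of one day all lay above those of the other made up 37.6% of tested genes in the upward and 35.2% in the downward direction. The called genes named below are all of this kind, except Ift27 and Kif20a, whose days overlapped. A bulk library cannot tell more cells of a type from more RNA per cell.

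**Figure D1:**
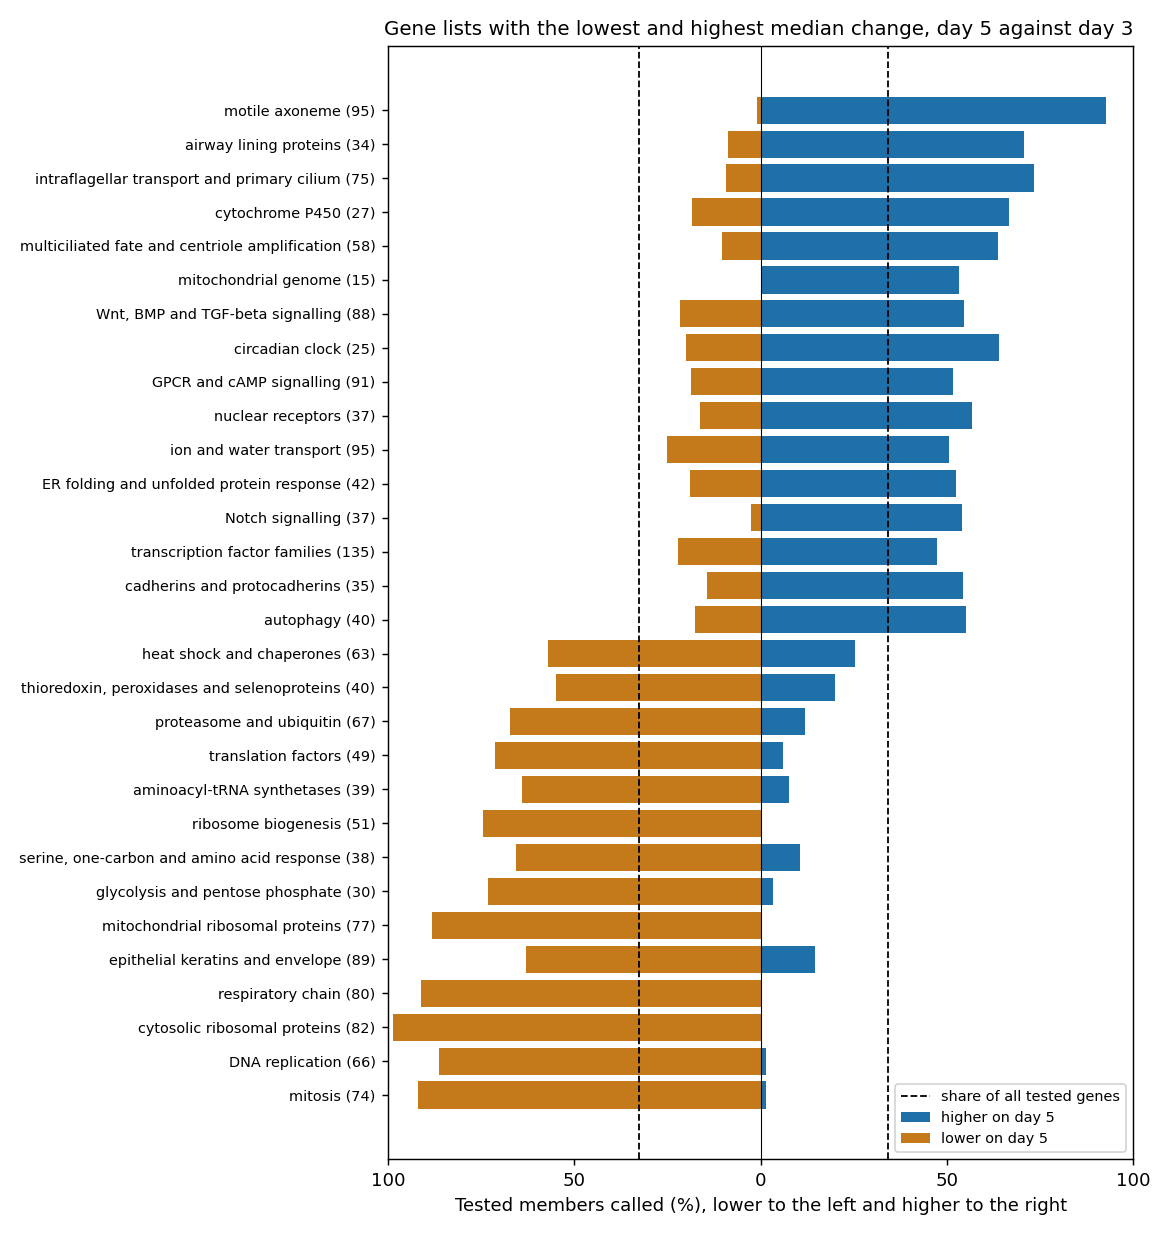
Share of the tested members of each gene list that was higher (blue, to the right) or lower (orange, to the left) on day 5, in percent, for the 14 lists with the lowest and the 16 with the highest median difference of 57, with the number of tested members in parentheses. The dashed lines mark the shares over all tested genes, 34.1% higher and 32.6% lower, and the bar of the motile axoneme reaches 92.6% to the right, that of the cytosolic ribosomal proteins 98.8% to the left.

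Sequences upstream of the genes of the cilium, replication and mitosis lists are shown because each of these lists moved largely in 1 direction. Promoter windows of RefSeq (GRCm38.p6) were searched over the 250 bases before the gene start, on both strands, for an X-box form, the element bound by RFX factors in ciliary genes. This form was written as GTNNCC and GGNNAC with 2 free bases between them. An E2F form (TTTGGCGC, TTTCCCGC, TTTCGCGC or TTTGCCGC) and the cell cycle homology region (CHR; TTTGAA or TTCGAA) were searched the same way, and no match of 1 motif overlapped a match of another. The X-box form stood in 8 of 69 promoters of the motile axoneme list (11.6%) and 10 of 65 of the intraflagellar transport and primary cilium list (15.4%), against 2.37% of 11096 tested genes with a window. The E2F form stood in 9 of 55 replication promoters (16.4%) against 3.80% of all, and the CHR in 25 of 65 mitosis promoters (38.5%) against 15.0%. Across the other pairings the X-box form stood in 4 of 65 mitosis promoters (6.15%) and none of 55 replication promoters. The E2F form stood in 6 of 65 mitosis promoters (9.23%), 3 of 69 axoneme promoters (4.35%) and 1 of 65 transport promoters (1.54%). The CHR stood in 10 of 55 replication promoters (18.2%), 11 of 69 axoneme promoters (15.9%) and 6 of 65 transport promoters (9.23%). The cytosolic ribosomal protein list, which also moved in 1 direction, had 61 promoters. Of these 1 held the X-box form (1.64%), 1 the E2F form (1.64%) and 4 the CHR (6.56%). These matches are a description of letters and were not tested as binding sites. The first 4 windows below belong to axoneme genes with the X-box form in capitals, the next 3 to replication genes with the E2F form, and the last 3 to mitosis genes with the CHR.
Tekt4, chr17:25471417-25471456, + strand: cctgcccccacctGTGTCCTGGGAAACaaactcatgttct
Cfap206, chr4:34730207-34730242, - strand: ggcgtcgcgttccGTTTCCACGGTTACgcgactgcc
Lrriq1, chr10:103236323-103236354, - strand: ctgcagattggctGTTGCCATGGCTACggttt
Cfap126, chr1:171122950-171122989, + strand: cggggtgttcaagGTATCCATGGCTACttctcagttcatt
Mcm5, chr8:75109347-75109380, + strand: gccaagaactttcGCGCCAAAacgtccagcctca
Orc1, chr4:108579414-108579447, + strand: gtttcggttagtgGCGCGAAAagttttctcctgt
Mcm6, chr1:128359732-128359765, - strand: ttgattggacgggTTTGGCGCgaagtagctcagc
Cenpm, chr15:82244401-82244432, - strand: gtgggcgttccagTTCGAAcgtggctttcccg
Ube2c, chr2:164769887-164769918, + strand: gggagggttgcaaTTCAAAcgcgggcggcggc
Cks1b, chr3:89418292-89418321, - strand: tgcgggcggtgtgTTTGAAagcgaggccaa

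Several regulators that commit a cell to many cilia were at or near 0 on day 3 and present on day 5. Of 22 fate regulators 17 were higher and 2 lower. Gmnc (ENSMUSG00000068428), the geminin relative at the head of the pathway, had no read in any day 3 library and 529 reads over the day 5 libraries, which is at least 174-fold higher against a floor of 3 reads over the group (adjusted p = 2.1e-06). Foxj1 (ENSMUSG00000034227), the factor that switches on motile cilium genes, stood at 52.5, 34.8 and 38.5 on day 3 and 2719, 2292 and 2770.3 on day 5 normalized counts (log2 difference 5.93, SE 0.18, adjusted p = 4e-07). Mcidas, which works with E2F partners downstream of Gmnc, went from 5.21 ± 1.39 to 303 ± 53.1 (SD, n = 3). Day 3 and day 5 libraries did not overlap for any of these genes. Foxn4, a forkhead factor of ciliated precursors, had 3 reads on day 3 and 432 on day 5 (ratio 142, 95% counting interval 48.3 to 691), and its log2 difference of 6.66 was 7.32 without day 3 replicate 3. E2f4, the partner that Mcidas and Gmnc use, was one of the 2 lower members, at 1433 to 1180.3 (log2 difference −0.29, SE 0.11, adjusted p = 0.042), a call that was lost when any library but day 5 replicate 2 was left out (adjusted p 0.060 to 0.11), under upper-quartile or quantile scaling (0.21 and 0.37) and with the trend removed (0.14). Ptges3l was the other, at 115 to 43.5. Foxa1, a pioneer factor of endoderm and the most abundant member, rose from 2244 ± 287 to 5471 ± 851 (log2 difference 1.28, SE 0.14, adjusted p = 0.00012).

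Of 36 tested centriole amplification genes 20 were higher and 4 lower, with a median of 0.51 (0.28 with the trend removed). Deup1 (ENSMUSG00000039977), the scaffold of deuterosomes on which extra centrioles form, had no read on day 3 and 1358 on day 5, at least 446-fold higher. Ccno, a cyclin relative needed for the same step, stood at 11.2, 12.05 and 13.8 on day 3 and 618, 579.6 and 699 on day 5 (log2 difference 5.57, SE 0.19, adjusted p = 7.6e-07). Its neighbour on the chromosome in many vertebrates, Cdc20b, went from no read to 246 reads. Fam161a and Ccdc78, both centriolar proteins, rose by 4.51 and 3.51 on the log2 scale. The 4 lower members were Cep89, of the distal appendages (917 to 633), Poc1a (482 to 298) and Poc1b (523 to 297), which stabilize centrioles, and Spag5, a mitotic spindle protein (873 to 308). Cep164, also of the appendages and the most abundant member, stood at 1538 to 1438 and was not called (adjusted p = 0.47, and 0.044 with the trend removed, where it was lower).

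The motile axoneme was the list with the largest share of higher members. Of 95 tested members 88 were higher and 1 was lower, with a median log2 difference of 5.11 (5.07 with genes that had no read on day 3 set at their lower bound). Members with no read on day 3, such as Dnah5, Cfap65 and Tekt1, passed the filter through day 5 alone and could only come out higher. The share and the median are thus partly set by the filter. Among the dynein arms, the motors that bend the cilium, 20 of 22 were higher. Dnah5 (ENSMUSG00000022262), an outer arm heavy chain, had no read on day 3 and 1079 on day 5, at least 355-fold higher. Dnali1, an inner arm chain, had 1 read on day 3 and 1160 on day 5 (ratio 1144, 95% counting interval 205 to 45228). Among 56 members of the central pair, radial spokes and other parts 53 were higher and none lower, with Cfap65 at no read and 2089 reads, at least 687-fold higher, and Tekt1, a filament of the doublet wall, at no read and 913, at least 300.2-fold higher. Of the genes whose promoters are shown above, Tekt4 stood at 0.833 to 327, Cfap206 at 8.32 to 485, Lrriq1 at 1.25 to 51.5 and Cfap126 at 49.04 to 593 normalized counts, and all 4 were called higher. Tekt4 and Lrriq1 had few reads on day 3, and without day 3 replicate 1 their log2 differences went from 7.75 to 8.35 and from 4.79 to 5.54. Among 17 assembly and docking factors 15 were higher, for example Ccdc40, a ruler of inner arm spacing (2.98 to 389; log2 difference 6.97, and 6.15 without day 3 replicate 2). Dnaaf5, a cytoplasmic assembly factor already expressed on day 3, rose from 316 ± 39.5 to 508 ± 50.7 (log2 difference 0.68, SE 0.14, adjusted p = 0.0031). Dnaaf2, also an assembly factor, was the lower member, at 124, 103 and 87.8 on day 3 and 42.6, 55.5 and 54.1 on day 5 (log2 difference −1.03, SE 0.23, adjusted p = 0.0042).

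Transport along the cilium moved in the same direction with smaller differences. Of 30 intraflagellar transport genes 20 were higher and 4 lower (2 with upper-quartile scaling or a replicate block; median 0.90), and of 34 genes of the BBSome, which sorts membrane proteins, and of the transition zone at the cilium base 28 were higher and 1 lower (median 1.20). Dync2h1, the motor of the return trip, stood at 33.7, 81.7 and 93.7 on day 3 and 511, 382 and 315 on day 5 (log2 difference 2.61, SE 0.37, adjusted p = 0.00048). Ttc8 of the BBSome rose from 31.6 ± 11.1 to 245 ± 24.5 and Cc2d2a of the transition zone from 55.6 ± 10.6 to 352 ± 88.2. The lower transport genes were Kif17 (64.2 to 26.96), Ift43 (959 to 691; log2 difference −0.49, but 0.23 with the trend removed), Cluap1 (598 to 389.6) and Ift27 (799 to 557), of which 1 was lower without day 3 replicate 1 and 1 without day 3 replicate 2. Ift27 was also not called without day 5 replicate 1 or 2 (adjusted p 0.095 and 0.094), under quantile or upper-quartile scaling (0.052 and 0.094) or with the trend removed (0.11). The lower BBSome member was Bbip1, the smallest subunit (631 to 416). Ift46, the most abundant transport gene, stood at 1633 to 1510.0 without a call. In the Hedgehog group, which signals through the primary cilium, 7 of 11 were higher. Sufu, an inhibitor of the pathway, was lower at 775 to 598 except without day 3 replicate 1 or 2 or with upper-quartile scaling (adjusted p 0.052 to 0.058). Dhh, a ligand, was lower too (25.98 to 1.42).

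Tubulins themselves did not follow the axoneme. Of 16 tested tubulin genes 8 were lower and 2 higher (1 without day 3 replicate 2 or without day 5 replicate 2), with a median of −0.50 (−0.47 with the trend removed). Tubb5 (ENSMUSG00000001525), the beta tubulin of dividing cells, stood at 23292, 21150.3 and 21386 on day 3 and 5332, 6904 and 6809 on day 5 (log2 difference −1.80, SE 0.14, adjusted p = 1.7e-05), and Tubb6 at 1851 to 479.7. The day 5 libraries lay below all day 3 libraries for both. Of 20 enzymes that modify tubulin 10 were higher and 2 lower (4 after quantile normalization or with the trend removed). Ttll6, which adds glutamate chains to axonemal tubulin, had no read on day 3 and 367 on day 5, at least 121-fold higher, and Agbl2, which removes glutamates from tubulin, had 2 reads and 365 (ratio 180.0, 95% counting interval 49.5 to 1492). Of 25 kinesins outside the mitosis list 17 were higher (median 0.74, 0.47 with the trend removed), led by Kif27 with 2 reads on day 3 and 280 on day 5 (ratio 138, 95% counting interval 37.9 to 1146) and by Kif9, a kinesin of the motile axoneme (38.3 to 257). Among microtubule-associated proteins Map2 rose (26.1 to 501) and Stmn1, which takes microtubules apart, fell (6262 to 1956).

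**Figure D2:**
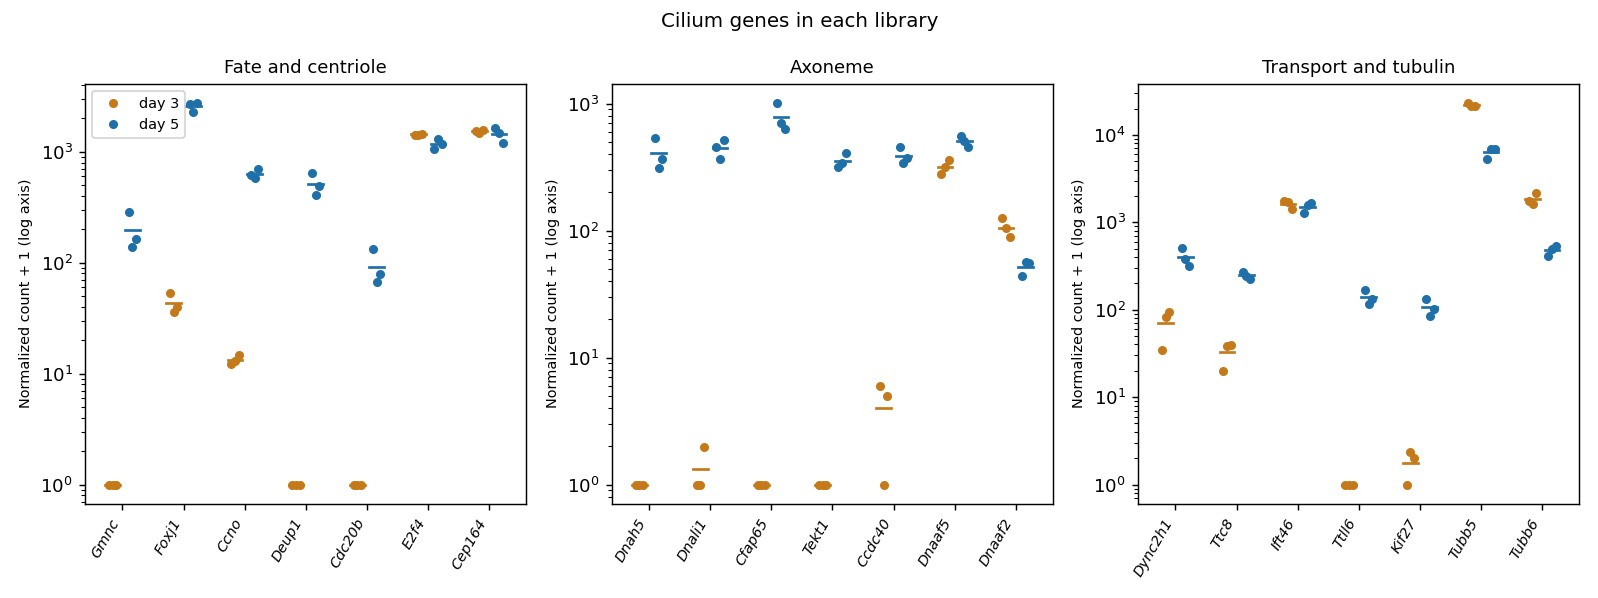
Normalized counts plus 1 on a log axis for genes of 3 groups in each library (points, replicates 1 to 3 from left to right) with the mean of each day (bar), day 3 in orange and day 5 in blue. Gmnc goes from 0 to 196, Foxj1 from 41.9 to 2594 and Dnah5 from 0 to 404, Ift46 and Cep164 stand level between the days, and Tubb5 and Tubb6 go down.

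Many secretory cell products, though not all, rose steeply. Of 34 tested airway lining proteins 24 were higher and 3 lower, with a median of 3.23. Scgb3a2 (ENSMUSG00000038791), a secretoglobin of club cells, stood at 18.7, 18.7 and 9.87 on day 3 and 54578, 68265 and 94044 on day 5 (log2 difference 12.09, SE 0.27, adjusted p = 1.2e-07). Scgb1a1 (ENSMUSG00000024653), the club cell secretoglobin, stood at 104, 114 and 73.02 on day 3 and 14216, 17437 and 24579 on day 5 (log2 difference 7.57, SE 0.23, adjusted p = 4e-07). Bpifa1 (ENSMUSG00000027483), a surfactant-like antimicrobial of the upper airway, went from 33.97 ± 2.51 to 125696 ± 20475. Every day 5 library lay far above every day 3 library for all 3 genes. Reg3g, a lectin that binds bacterial walls, rose from 39.00 ± 5.70 to 13788 ± 3346, and the gel-forming mucin Muc5b from 6.11 ± 2.88 to 685 ± 180.4, while Muc5ac had no read on day 3 and 328 on day 5, at least 108-fold higher. The lysozymes Lyz1 (23.97 to 6494) and Lyz2 (550.4 to 70299) rose too, and as close copies their reads may be split between them. The 3 lower members, which became 5 without day 5 replicate 1 or after quantile normalization, were Slpi, a protease inhibitor (1853 to 198), Muc13 (104 to 9.996) and Muc20 (1446 to 638). Cbr2, an abundant carbonyl reductase of club cells, stood at 311058 ± 62847 to 311624 ± 63373 without a call (adjusted p = 1.00).

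Among genes of the endoplasmic reticulum the regulators of its stress response rose, while the general machinery was mixed. Of 12 regulators 9 were higher and none lower, with a median of 0.95. Ern2, the stress sensor of mucus cells, stood at 3.75, 9.37 and 5.92 on day 3 and 237, 147 and 122 on day 5 (log2 difference 4.54, SE 0.38, adjusted p = 2.7e-05). Creb3l1, a membrane-bound factor released by the same stress, went from 6.41 ± 2.15 to 119.8 ± 28.3. Spdef, a factor of mucus cell maturation, rose from 25.2 ± 6.68 to 247 ± 17.6 (log2 difference 3.28, SE 0.25, adjusted p = 1.6e-05). Agr2, a folding enzyme for mucins, rose from 200.03 ± 66.8 to 1403 ± 272 and its relative Agr3 from 1.58 ± 1.94 to 113 ± 25.8, whereas Ero1a (2655 to 943) and Manf (3867 to 1851), which serve folding in most cells, fell. Of 23 translocon and signal peptidase genes 4 were higher and 12 lower (median −0.39). After quantile normalization 8 were higher and 7 lower (median −0.03), and with the trend removed 2 were higher and 11 lower (median −0.26). The examples are Sec61a1 of the pore, higher at 707 to 2268, and its small partner Sec61g, lower at 3584 to 1516.

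Of 31 tested sugar transferases that build mucin chains 11 were higher and 11 lower, with a median of 0.00, and both shares lay close to those of all tested genes. Galnt5 (24.98, 34.8 and 17.8 on day 3 and 341, 225 and 142 on day 5), Gcnt1 (288 to 928) and Galnt11 (133 to 334) rose. Gcnt3 (509.6, 428 and 637 on day 3 and 72.3, 65.8 and 59.1 on day 5), Galnt6 (517 to 79.3) and Fut1 (213 to 45.2) fell. Among vesicle genes 20 of 70 were higher (13 without day 3 replicate 2, 32 after quantile normalization) and 20 lower (12 after quantile normalization, 31 with the trend removed). The shares of 20 of 70 also lay close to those of all tested genes. The largest rises were in regulators of stored granules, Cadps2 (16.4 to 409), Sytl2 (80.5 to 964) and Syt7 (7.40 to 64.99), while another synaptotagmin, Syt8, fell (3996 to 1103).

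Enzymes that oxidize foreign chemicals and lipids rose in several families. Of 27 cytochrome P450 genes 18 were higher and 5 lower (median 1.09), and of 17 alcohol dehydrogenases, flavin monooxygenases and esterases 12 were higher and 3 lower (median 1.99). Cyp2f2 (ENSMUSG00000052974), the naphthalene-oxidizing P450 of mouse club cells, stood at 21987, 28706 and 20008 on day 3 and 261859, 314483 and 307496 on day 5 (log2 difference 3.66, SE 0.23, adjusted p = 7.2e-06). The flavin monooxygenases Fmo1 (9.73 to 784; log2 difference 6.49, and 7.08 without day 3 replicate 2) and Fmo2 (665 to 14963) rose too. Day 3 and day 5 libraries were apart for each of these 3 genes. Cyp4b1 rose from 224 ± 33.4 to 12899 ± 364 and Cyp2a5 from 711 ± 184 to 40139 ± 3029, and Cyp2a4 from 4.94 to 915, although near-identical copies make the split between Cyp2a4 and Cyp2a5 uncertain. Aldh1a1 (ENSMUSG00000053279), which oxidizes retinal and other aldehydes, stood at 1523, 1733 and 1529.5 on day 3 and 44878, 41929.5 and 44322 on day 5 (log2 difference 4.78, SE 0.11, adjusted p = 1.2e-07). The carboxylesterases Ces1d (7504 to 50059) and Ces1b (8.11 to 336) rose and Ces2e fell (932 to 249.7).

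Conjugating enzymes were counted by kind. Of 19 UDP and sulfo transfer genes 12 were higher and 4 lower, and of 29 glutathione genes 9 were higher and 15 lower. Sult1d1, a sulfotransferase, stood at 27.5, 45.5 and 33.6 on day 3 and 6384, 4776 and 4848 on day 5 (log2 difference 7.21, SE 0.20, adjusted p = 4e-07), and Sult1c2 rose from 4.44 ± 1.29 to 482 ± 46.7. Gstp1 (ENSMUSG00000060803), the most abundant pi class transferase, stood at 138162, 128999.6 and 98338 on day 3 and 13813, 20674 and 23577 on day 5 (log2 difference −2.67, SE 0.25, adjusted p = 4.9e-05), with Gstp2 at 37259 to 5307, and reads of these near-identical copies cannot be assigned firmly. Gsta1 fell (2386 to 325) and Gsta3 rose (7247 to 19833). Gsto1 stood at 410139.5, 419963 and 428798 on day 3 and 212909, 263436 and 280727 on day 5 and was not called (adjusted p = 0.099), although the days did not overlap. It was lower after quantile normalization, without the filter, without the mean-variance trend and in the fit of all 9 libraries (adjusted p 0.0047 to 0.031). Nqo1, a quinone reductase, fell from 7857 ± 303 to 1742 ± 187 (log2 difference −2.18, SE 0.11, adjusted p = 2.3e-06), and Akr1b8, an aldo-keto reductase, from 1842 ± 74.7 to 348 ± 46.2, while Akr1c14 of the same superfamily rose from 13.1 ± 8.45 to 502 ± 120.0.

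Iron and copper handling showed large opposite movements. Of 20 iron transport and storage genes 12 were higher and 6 lower (2 after quantile normalization). Trf (ENSMUSG00000032554), transferrin, the iron carrier of extracellular fluid, stood at 7.49, 14.7 and 8.88 on day 3 and 1496, 1211 and 1634 on day 5 (log2 difference 7.03, SE 0.26, adjusted p = 9.1e-07). Steap4, a metal reductase, rose from 98.7 ± 26.3 to 2277 ± 649.9, and Slc40a1, ferroportin, the iron exporter, from 33.03 ± 8.64 to 339 ± 34.9. Fth1, the heavy chain of ferritin, which stores iron, stood at 151963, 138615 and 136190.4 on day 3 and 39753, 54247 and 59709 on day 5 (log2 difference −1.49, SE 0.24, adjusted p = 0.00081). Tfrc, the receptor that takes transferrin in, fell from 2575 ± 95.5 to 1679 ± 294 (log2 difference −0.63, but −0.34 and not called after quantile normalization, adjusted p = 0.062). Atp7b (ENSMUSG00000006567), a copper pump of the secretory pathway, stood at 13.7, 24.1 and 26.6 on day 3 and 2306, 1679 and 1542 on day 5 (log2 difference 6.39, SE 0.27, adjusted p = 1.3e-06). The metallothioneins, which bind zinc and copper, fell, with Mt1 at 17715, 16851 and 10633 on day 3 and 1831, 2707 and 3559 on day 5 and Mt2 at 864 to 96.01. In heme synthesis the first enzyme Alas1 rose (3436 ± 356 to 12525 ± 358) and the second, Alad, fell (5399.8 ± 709.6 to 1332 ± 314).

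**Figure D3:**
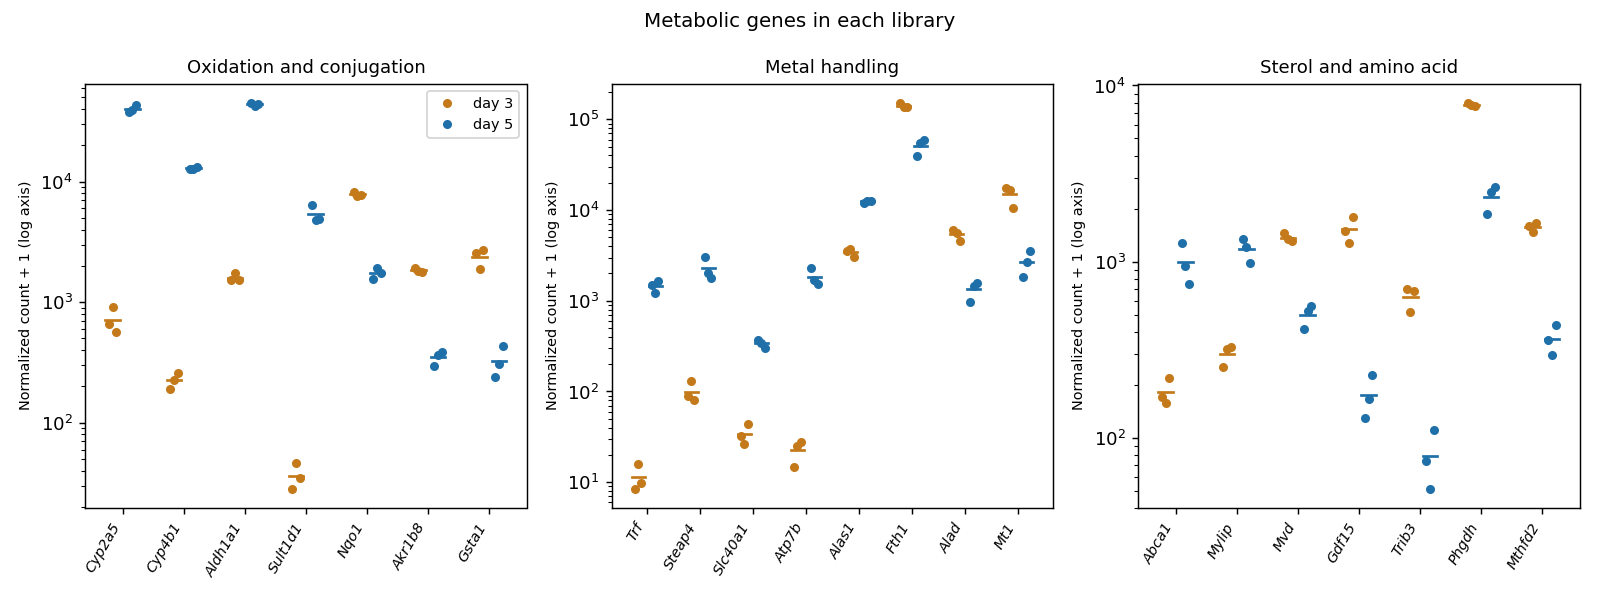
Normalized counts plus 1 on a log axis in each library (points, replicates 1 to 3 from left to right; bars, day means) for enzymes of oxidation and conjugation, metal handling, and sterol and amino acid metabolism. Trf and Atp7b stand at 1447 and 1842 on day 5 against 10.4 and 21.5 on day 3, while Gsta1 goes from 2386 to 325, and the days overlap for none of the 22 genes drawn.

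Genes of rare airway cells were detected on day 5 often at low level. Of 8 ionocyte markers 7 were higher and none lower, and of 8 tested tuft cell markers 6 were higher and 1 lower. Of 9 neuroendocrine markers 5 were tested, and all 5 were higher. These 5 lay below 10 normalized counts in every day 3 library and could only come out higher, as could Foxi1 and Trpm5. Among the untested neuroendocrine markers Syp stood at 10.2 to 7.91, Chgb at 2.41 to 8.43, Scg5 at 0 to 13.1 and Resp18 at 0 to 0.741. Foxi1, the ionocyte factor, had 1 read on day 3 and 399 reads on day 5 (ratio 394, 95% counting interval 70.2 to 15582). Atp6v1b1 and Atp6v0a4, proton pump subunits of ion-transporting cells, rose from 2.62 ± 1.35 to 269 ± 27.4 and from 1.64 ± 0.910 to 93.2 ± 13.02. Cftr, the chloride channel, went from 13.8 ± 5.001 to 55.3 ± 18.3 (log2 difference 1.94, SE 0.36, adjusted p = 0.0019). Trpm5, a channel of tuft cells, stood at 7.49, 1.34 and 0.987 on day 3 and 169, 143 and 129 on day 5 (log2 difference 5.44, SE 0.53, adjusted p = 6.4e-05; 6.10 without day 3 replicate 1). It was barely detected on day 3 and plainly present on day 5. Calca, which encodes a neuropeptide of neuroendocrine cells, rose too (4.74 to 194). Insm1 had no read on day 3 and 133 on day 5, at least 43.7-fold higher. Alox5ap was the lower tuft cell marker (18.6 to 8.98), a call that was lost without replicate 1 or 3 of either day (adjusted p 0.078 to 0.12).

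Basal genes moved in both directions. Of 10 markers 5 were higher and 3 lower. Krt5 (ENSMUSG00000061527), the basal keratin, stood at 84268, 82328 and 80861 on day 3 and 32540.4, 43946 and 40281 on day 5 (log2 difference −1.09, SE 0.19, adjusted p = 0.0014). The basal factor Trp63 (ENSMUSG00000022510) stood at 1469, 1762 and 1700.3 on day 3 and 3276, 2787 and 2332 on day 5 (log2 difference 0.76, SE 0.14, adjusted p = 0.0018). Krt5 was thus lower and Trp63 higher in every day 5 library. Krt14 was at 9822 ± 663 to 11899 ± 2728 and was not called (adjusted p = 0.24, but 0.0052 without day 5 replicate 1 or with the trend removed and 0.00087 after quantile normalization, where it was higher). Krt15 was at 302633 ± 29307 to 195601 ± 34885 and was not called (adjusted p = 0.12), but it was lower after quantile normalization, without the mean-variance trend and in the fit of all 9 libraries (adjusted p 0.0059 to 0.027). Itga6, an integrin of the basal surface, fell (4129.8 to 2467; log2 difference −0.75, but −0.35 and not called after quantile normalization, adjusted p = 0.14). Pdpn rose by 0.52 on the log2 scale and Ngfr by 0.33, the latter not called without day 3 replicate 1 or 3 or day 5 replicate 2 (adjusted p 0.066 to 0.092). Dapl1 rose most, from 153 ± 51.8 to 923 ± 262.

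Cell cycle genes fell almost throughout. Of 74 mitosis genes 68 were lower and 1 higher (median −1.68), and of 66 DNA replication genes 57 were lower and 1 higher (median −1.42). Without the length and GC trend these medians were −1.85 and −1.64. Mki67 (ENSMUSG00000031004), carried by dividing cells, stood at 4355, 4129 and 4138 on day 3 and 1144, 1117 and 944 on day 5 (log2 difference −1.98, SE 0.10, adjusted p = 3.1e-06). Cenpm, a centromere protein, stood at 1986, 1896 and 1419 on day 3 and 83.2, 138 and 123 on day 5 (log2 difference −3.95, SE 0.21, adjusted p = 3.4e-06), and Ube2c, which triggers mitotic exit, fell from 4036 ± 207 to 549 ± 89.7. In replication Chaf1b, which places histones on new DNA, fell from 1699 ± 220.0 to 208 ± 29.3 (log2 difference −3.02, SE 0.15, adjusted p = 2.2e-06). Cdc45 of the helicase fell from 662 ± 48.3 to 100.8 ± 4.37. Of the genes with promoters shown above Mcm5 fell from 1964 ± 141 to 485 ± 48.1, Mcm6 from 3671 ± 121 to 948 ± 70.5 and Orc1 from 77.6 ± 13.5 to 17.6 ± 3.502. The higher member of the replication list was Rrm2b (181 to 389), the p53-dependent subunit of ribonucleotide reductase, whereas its cycle-bound counterpart Rrm2 fell (2003 to 357). Without day 3 or day 5 replicate 3 the higher replication members numbered 2, and with upper-quartile scaling 4. The higher mitosis member, Kif20a (117 to 232), is an overlapped gene, and when single libraries were left out it was called only without day 3 replicate 3, where 2 mitosis members were higher. It was not called after quantile normalization (adjusted p = 0.086) or with the trend removed (0.080).

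Cyclins and their brakes moved in both directions. Of 25 cyclins and kinases 10 were higher and 9 lower, and of 21 inhibitors and E2F factors 5 were higher and 10 lower. The shares of the cyclins and kinases lay close to those of all tested genes. Ccnd2 (12417, 11205 and 10946 on day 3 and 2909, 2358 and 2099.5 on day 5) and Ccne1 (325 to 94.7), which drive entry into the cycle, fell, while Ccna1 rose from 1.97 ± 0.714 to 284 ± 53.9. Among brakes Cdkn1b (1076 to 1689) and Rbl2 (97.4 to 375), both tied to quiescence, rose and Cdkn1a fell (6287 to 2973). Of 27 p53 targets 14 were lower (9 after quantile normalization), with Bax at 4785 to 1646 and Pmaip1 at 1805 to 559, and 7 were higher, with Btg2 at 2585 to 8660.3 and Sesn1 at 597 to 1725. Trp73, a p53 relative used by multiciliated cells, rose from 69.8 ± 20.7 to 281 ± 18.4 (log2 difference 2.04, SE 0.24, adjusted p = 0.00019). Of 32 homologous recombination and Fanconi genes 18 were lower, for example Rad54l (389 to 58.97), and of the replication-coupled histones H3c3 fell from 71.4 ± 24.5 to 3.53 ± 4.51 (log2 difference −4.51, and −3.71 and −5.34 without day 5 replicate 2 and 3). Uhrf1, which copies DNA methylation after replication, fell from 2683 ± 44.6 to 455 ± 56.1, and the architectural protein Hmga1 from 26509 ± 4467 to 4422 ± 485.

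Genes of protein synthesis fell as a body. Of 82 cytosolic ribosomal protein genes 81 were lower and none higher, with a median log2 difference of −1.38 (−0.98 with the trend removed, where 75 were lower, and −0.70 after quantile normalization, where 71 were). They took 12.5 ± 1.45% of normalized counts on day 3 and 6.08 ± 1.32% on day 5 (SD, n = 3). Rplp0 (ENSMUSG00000067274), of the ribosome stalk, stood at 107708, 106659 and 86231 on day 3 and 38725, 57159 and 58388 on day 5 (log2 difference −0.98, SE 0.24, adjusted p = 0.0070). Rpsa, of the small subunit, stood at 129639.8, 119508 and 82344 on day 3 and 19357, 31919.6 and 35002 on day 5 (log2 difference −1.96, SE 0.29, adjusted p = 0.00053). Both lay lower in each day 5 library than in each day 3 library, although pseudogene copies make single ribosomal protein values uncertain. Of 51 nucleolar genes for ribosome assembly 38 were lower and none higher (median −0.78, −0.79 with the trend removed), and their transcripts were of ordinary length, with a median of 3036 bases against 2925 over all tested genes. Nhp2, of the RNA-modifying particles, fell from 5210.4 ± 850.2 to 1134 ± 283, and Nop56 from 5593 ± 438 to 1705 ± 282. Of 38 initiation factors 29 were lower and 2 higher (1 without day 5 replicate 2 or any day 3 library), with a median of −0.71. After quantile normalization 17 were lower and 7 higher, with a median of −0.25. Eif4ebp1, a brake on cap binding, stood at 4866, 4416 and 4432 on day 3 and 692, 811 and 1055 on day 5 (log2 difference −2.44, SE 0.15, adjusted p = 6.4e-06). Eif4a2, a helicase of initiation, was higher (3761 to 7162) and its close relative Eif4a1 lower (28609.6 to 12112). Eef1a1 (ENSMUSG00000037742), the elongation factor, stood at 105547, 119795 and 140052 on day 3 and 117746, 128459 and 120187 on day 5 without a call (adjusted p = 0.97).

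Enzymes that load amino acids on tRNA also fell. Of 22 cytosolic synthetases 18 were lower and none higher (median −0.85), and of 17 mitochondrial ones 7 were lower (11 with the trend removed) and 3 higher. Cars fell from 6955 ± 374 to 1909 ± 206 (log2 difference −1.87, SE 0.11, adjusted p = 4.8e-06) and Gars from 6073 ± 143 to 1832 ± 83.4. Lars2 fell most among the mitochondrial enzymes (4021 to 854; log2 difference −1.84, and −1.11 without day 3 replicate 1) and Cars2 rose (273 to 505).

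**Figure D4:**
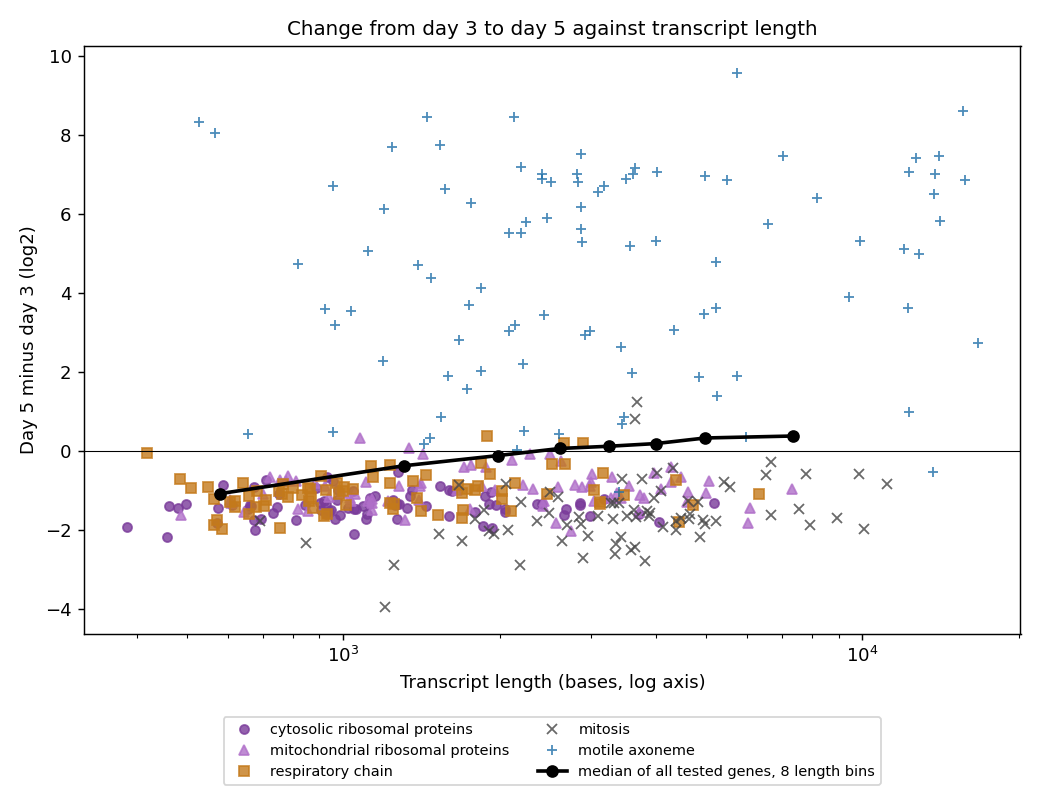
Day 5 minus day 3 (log2) against transcript length in bases (log axis) for the genes of 5 lists, with the medians of all tested genes in 8 length bins as a black line. Ribosomal protein and respiratory chain genes lie at short lengths, where the line reaches −1.08, most mitosis genes lie below the line at longer lengths, and most axoneme genes lie above it.

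Nuclear and mitochondrial genes of the respiratory chain moved apart. Of 80 nuclear genes 73 were lower and none higher (median −1.07, −0.63 with the trend removed, where 66 were lower), or 64 lower and 4 higher after quantile normalization. Of 77 mitochondrial ribosomal proteins 68 were lower and none higher (median −0.97, −0.86 with the trend removed). Of 13 protein genes encoded in mitochondrial DNA 8 were higher and none lower (median 0.92, 1.23 with the trend removed), or 12 higher after quantile normalization. The gene mt-Nd4 (ENSMUSG00000064363), of complex I, stood at 17794, 17917 and 33079.6 on day 3 and 103527, 100047 and 85419 on day 5 (log2 difference 2.13, SE 0.27, adjusted p = 0.00023). The complex IV gene mt-Co1 stood at 152163, 163875 and 216758 on day 3 and 400764, 434088 and 353347 on day 5 (log2 difference 1.17, SE 0.34, adjusted p = 0.016), and was not called without day 3 replicate 1 or 2 or day 5 replicate 2 (adjusted p 0.061 to 0.071). Together the 13 genes took 2.70 ± 0.384% of normalized counts on day 3 and 6.19 ± 0.399% on day 5. In complex I Ndufs6 fell from 5205 ± 1199 to 1376 ± 446, in complex IV Cox7a2 from 6296 ± 1009 to 2153 ± 662, and all 16 nuclear ATP synthase genes were lower. In the TCA cycle 10 of 18 genes were lower (median −0.25, but 0.03 after quantile normalization, where 6 were lower), with Mdh2 at 16795 to 5882. Idh2 was higher (3621 to 5776). In fatty acid oxidation 11 of 25 were higher, with the peroxisomal Acox2 at 51.2, 50.9 and 57.2 on day 3 and 650.0, 521 and 612 on day 5 (log2 difference 3.46, SE 0.16, adjusted p = 1.8e-06).

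**Figure D5:**
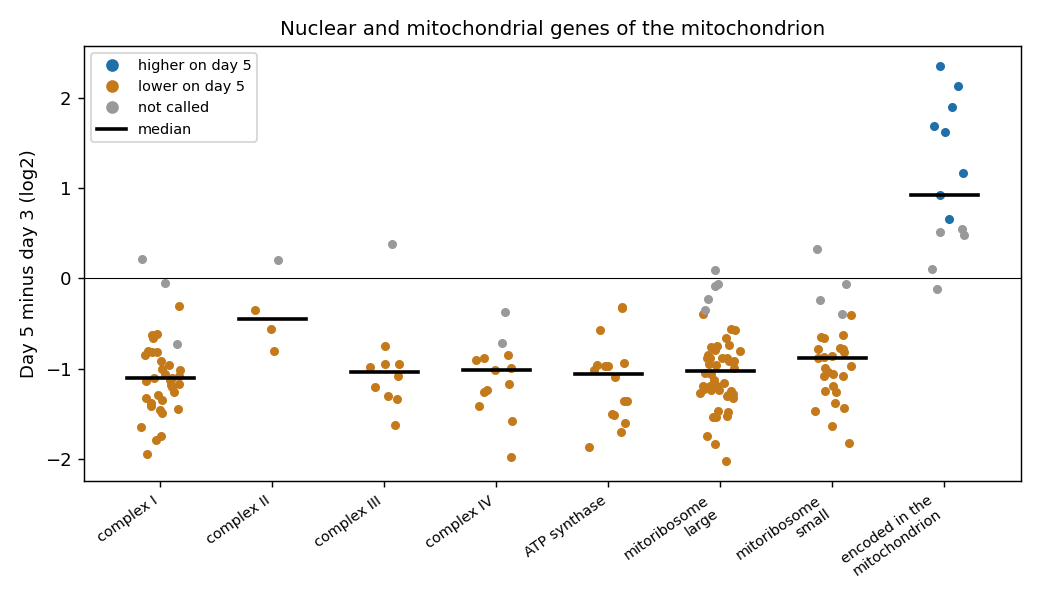
Day 5 minus day 3 (log2) of single genes (points; blue higher, orange lower, grey not called) by respiratory complex, mitochondrial ribosome subunit and mitochondrial genome, with the group median as a black bar. Medians of the nuclear groups lie between −1.10 and −0.45, and that of the genes encoded in the mitochondrion at 0.92.

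Protein turnover and RNA splicing particles fell along with these groups, though with exceptions. Of 42 proteasome genes 37 were lower, or 15 of the core and 9 of the cap after quantile normalization, with Psma7 of the core at 9411 to 3955 and Psmd4 of the cap at 7415 to 3203. Psmd1 was higher (1287 to 1949; not called without day 3 replicate 1 or 2 or day 5 replicate 1, adjusted p 0.057 to 0.072). Of 38 genes of small nuclear ribonucleoproteins 32 were lower (median −0.99, −0.92 with the trend removed), for example Snrpd1 (5545, 4653 and 4028 on day 3 and 718, 1025 and 1168 on day 5), and Sf3b1, which binds the branch point, was higher (3356 to 5101). The SR and hnRNP splicing regulators were mixed, 18 of 48 higher and 14 lower, shares close to those of all tested genes. The lower members numbered 5 after quantile normalization and 25 with the trend removed, and the kinase Clk1 that acts on SR proteins rose (1042 to 2921). Of 26 mitochondrial chaperone, chaperonin and prefoldin genes 21 were lower, for example Hspe1 (6213 to 1937), and Tbce, a tubulin folding factor, rose (356 to 921). Autophagy went the other way, with 22 of 40 genes higher and 7 lower, or 4 without day 3 replicate 2 or after quantile normalization (median 0.38, 0.21 with the trend removed). Atg9a, a membrane scramblase of autophagosomes, stood at 12.5, 18.7 and 81.9 on day 3 and 385, 221 and 169 on day 5 (log2 difference 3.12, SE 0.63, adjusted p = 0.0028; 3.90 without day 3 replicate 3). Its relative Atg9b stood at 6709.9, 6483 and 8441 on day 3 and 1163, 1382 and 1059.6 on day 5 (log2 difference −2.58, SE 0.14, adjusted p = 3.7e-06). Ulk1, the kinase that starts the process, rose from 770.1 ± 31.9 to 1873 ± 299.

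Genes of glycolysis, of serine and folate metabolism and of sterol synthesis mostly fell. Of 22 glycolysis genes 17 were lower and 1, Aldoc (804 to 1064), was higher, a call that was lost without replicate 3 of day 3 or day 5 or with the trend removed (adjusted p 0.053 to 0.063). Pkm, the last enzyme, stood at 36398, 34633 and 34682 on day 3 and 12469.6, 14646 and 14177 on day 5 (log2 difference −1.36, SE 0.13, adjusted p = 6.4e-05), and Slc16a3, the lactate exporter, fell from 613 ± 72.6 to 124 ± 3.04. Of 19 serine and folate genes 13 were lower (median −1.43). Phgdh, the entry to serine synthesis, stood at 7958, 7731 and 7604 on day 3 and 1872, 2479.6 and 2661 on day 5 (log2 difference −1.75, SE 0.14, adjusted p = 2.1e-05). Mthfd2, a mitochondrial folate enzyme, fell from 1570.2 ± 88.95 to 363 ± 71.5. Of 19 genes of the ATF4 response, which answers amino acid and folding stress, 12 were lower, led by Gdf15 (1499, 1271 and 1794 on day 3 and 128, 165 and 226 on day 5), Trib3 (629 to 77.4) and Chac1 (859.6 to 184). Of 20 cholesterol synthesis genes 15 were lower and none higher (median −0.54, −0.81 with the trend removed), for example Mvd (1361 to 496). Abca1, which exports cholesterol, rose from 181 ± 33.1 to 987 ± 273 (log2 difference 2.42, SE 0.22, adjusted p = 3.9e-05), and Mylip, which removes the LDL receptor, from 299 ± 41.5 to 1178 ± 181 (log2 difference 1.97, SE 0.16, adjusted p = 2.1e-05). Hmgcs1, an early enzyme, stood at 3460.0 to 3041 without a call (log2 difference −0.19, adjusted p = 0.11), and was lower with the trend removed (−0.43, adjusted p = 0.0017).

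Membrane lipid genes were mixed, with large rises in sphingolipid enzymes. Of 25 sphingolipid genes 13 were higher and 7 lower. St3gal5, which makes the ganglioside GM3, stood at 23.7, 25.4 and 36.5 on day 3 and 873, 954 and 965 on day 5 (log2 difference 5.00, SE 0.20, adjusted p = 1e-06), and Sptlc3, of the first step, rose from 9.35 ± 3.77 to 215 ± 35.2. Cers4 rose (38.4 to 149) and Cers3, the ceramide synthase of barrier lipids, fell (1057 to 347). Among fatty acid enzymes Acsl1 rose (1398 to 4221) and Elovl6 fell (2093 to 809.9).

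Squamous and hillock genes mostly fell. Of 21 keratins 16 were lower and 1 higher (2 without day 5 replicate 1), and of 21 envelope genes 14 were lower and 3 higher. Krt13 (ENSMUSG00000044041), a keratin of hillock cells, stood at 64191, 65542 and 53132 on day 3 and 4729.6, 9876 and 6174 on day 5 (log2 difference −3.20, SE 0.26, adjusted p = 2.2e-05). Krt4 of the same cells fell from 33514 ± 1338 to 9499.8 ± 1818. Krt8 of simple epithelium fell from 22813 ± 1403 to 12066 ± 1809 (log2 difference −0.93, SE 0.15, adjusted p = 0.00085), but after quantile normalization its log2 difference was −0.23 and was not called (adjusted p = 0.097). Krt7 fell from 116872 ± 7705 to 16155 ± 2678 and Krt6a, a wound keratin, from 5127 ± 679 to 573 ± 35.8. Sprr2b, a small proline-rich envelope protein, had 1091 reads on day 3 and 1 on day 5 (ratio 1106, 95% counting interval 198 to 43730.5). Sprr1a of the same cluster stood at 2564, 2035 and 3463 on day 3 and 37.7, 38.7 and 44.3 on day 5 (log2 difference −6.00, SE 0.20, adjusted p = 6.6e-07). Sprr2a1 (34688 to 997) and Sprr2a2 (45237 to 1389) fell too, with reads of these near-identical copies not assigned firmly. Tgm2, a transglutaminase, rose from 4886 ± 1243 to 13371 ± 883. All 8 suprabasal and hillock markers were lower.

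Surface proteins and skin-type proteases fell with them. Of 47 surface and calcium-binding genes 26 were lower and 9 higher (5 without day 3 replicate 3). Ly6c1, a surface protein, stood at 10524, 9827 and 13598 on day 3 and 204, 338 and 292 on day 5 (log2 difference −5.36, SE 0.20, adjusted p = 9.1e-07). Psca, also of the Ly6 family, fell (8372 to 452), and S100a4, a calcium-binding protein, had 250 reads on day 3 and 3 on day 5. Ly6g had 329 reads on day 3 and none on day 5, at least 111-fold lower, and Ly6c2 fell from 369.6 ± 113 to 5.46 ± 2.07. This gene cluster holds close copies. Of 25 serine proteases 13 were lower and 3 higher (5 with upper-quartile scaling), with Klk13, a kallikrein, at 953, 1089 and 682 on day 3 and 6.94, 10.3 and 11.1 on day 5 (log2 difference −6.44, SE 0.26, adjusted p = 1.1e-06) and Prss27 at 899.5 to 78.6. Among inhibitors Csta1 (126 to 4.58) and Cst6 (590.4 to 45.9), cystatins of stratified epithelia, fell. Wfdc2, the most abundant, fell from 224811 ± 53502 to 63947 ± 17369.

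Genes of shape and adhesion moved in both directions. Of 26 genes of branched and linear actin 14 were lower and 2 higher, or 8 and 5 after quantile normalization, with Pfn1, which feeds actin growth, at 28075 to 10632 and Pfn2 at 312 to 931. Capg, an actin capper, stood at 37906, 34819 and 28299 on day 3 and 2991, 4529 and 5113 on day 5 (log2 difference −3.02, SE 0.21, adjusted p = 1.1e-05). Fscn1, a bundler of protrusions, stood at 7343, 6579 and 6855 on day 3 and 763, 1137 and 977 on day 5 (log2 difference −2.87, SE 0.15, adjusted p = 2.7e-06). Both were far below their day 3 range in each day 5 library. Prom1 of microvilli rose from 447 ± 113 to 3671 ± 374. Of 18 cadherins 12 were higher and 2 lower. Cdhr3, a surface protein of ciliated cells, had 1 read on day 3 and 1020 on day 5 (ratio 1006, 95% counting interval 180.2 to 39774). Cdh26, of the same superfamily, rose from 1.67 ± 2.88 to 125 ± 10.4 (log2 difference 6.12, and 6.98 without day 3 replicate 1). Cdh1, the main epithelial cadherin, stood at 8784 to 10259 without a call, but was higher after quantile normalization or upper-quartile scaling (adjusted p = 0.0034 and 0.029). With the trend removed 9 cadherins were higher and 4 lower. Among claudins Cldn6, of embryonic epithelia, stood at 1739.9, 1313 and 1945 on day 3 and 60.4, 56.8 and 57.8 on day 5 (log2 difference −4.79, SE 0.17, adjusted p = 7.6e-07). Cldn4 (15981 to 5825) and Cldn7 (13871 to 4113), of many epithelia, fell as well. Cldn8 (131 to 1132) and Cldn10 (2.24 to 115; log2 difference 5.43, and 4.73 without day 3 replicate 2) rose. Ildr1, of junctions where 3 cells meet, rose from 274 ± 21.7 to 1972 ± 157. In the gap junction group Gjb5, of stratified epithelia, fell (225 to 20.2) and Gjb1 rose (23.9 to 80.2).

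Matrix genes moved in both directions. Of 31 laminins and collagens 12 were higher and 9 lower, or 10 and 13 with the trend removed, and of 12 integrins 3 were higher and 4 lower, or 6 and 2 after quantile normalization. The shares of 12 and 9 among the laminins and collagens lay close to those of all tested genes. Col4a1 stood at 382, 289 and 446 on day 3 and 24.8, 33.6 and 27.1 on day 5 (log2 difference −3.65, SE 0.23, adjusted p = 6.5e-06), Col4a2 at 499 to 45.6 and Col18a1 at 4983 to 541, and all 3 fell. Col7a1, of anchoring fibrils, rose from 911 ± 149.7 to 3140.1 ± 379 (log2 difference 1.79, SE 0.14, adjusted p = 2.2e-05). Integrin Itga3 fell from 13891 ± 1847 to 3808 ± 181, and Itga1 (14.4 to 110.4) and Itga9 (15.1 to 115) rose. Among targets of YAP, Tpm2 (10453 to 965) and Flnc (247 to 19.6) fell while Ccn1 (1481, 894 and 2236 on day 3 and 8487, 9035 and 7005 on day 5) and F3 (3442 to 15839.8) rose, so the 37 tested targets divided into 15 higher and 18 lower.

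Of 21 tested ligands of the EGF, FGF and related receptors 10 were higher and 7 lower. Areg, an EGF receptor ligand, stood at 792, 739 and 973 on day 3 and 62.4, 61.96 and 78.8 on day 5 (log2 difference −3.60, SE 0.17, adjusted p = 2e-06). Ereg, another such ligand, fell from 404 ± 70.6 to 84.3 ± 19.03. Etv4, a response factor of the MAPK pathway, fell from 1228 ± 106 to 137 ± 20.8 (log2 difference −3.16, SE 0.15, adjusted p = 1.8e-06). Fgf1 rose from 102 ± 19.5 to 1974 ± 198 (log2 difference 4.27, SE 0.16, adjusted p = 9.5e-07). Of 18 tested receptor kinases 12 were higher, among them Fgfr3 (2309 to 4759.8) and Kit (4.86 to 119), while Fgfr4 fell from 116 ± 38.8 to 1.85 ± 1.62 (log2 difference −5.53, and −4.89 without day 5 replicate 3). Igfbp5, which binds insulin-like growth factors, stood at 388, 510.1 and 346 on day 3 and 11148, 9482 and 8024 on day 5 (log2 difference 4.53, SE 0.17, adjusted p = 9.5e-07), and Lrig1, a brake on EGF receptors, rose from 861 ± 181 to 3001 ± 599.8. Of 27 feedback genes 6 were higher and 11 lower.

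Of 34 Wnt genes 21 were higher and 5 lower (median 0.69), and 15 were higher and 6 lower with the trend removed (median 0.42). Lgr6 (ENSMUSG00000042793), a receptor for R-spondins, stood at 1.25, 0 and 3.95 on day 3 and 936, 836 and 799 on day 5 (log2 difference 8.58, SE 0.51, adjusted p = 5.4e-06). The ligand Wnt5b rose from 6.73 ± 1.14 to 239.9 ± 32.04, and the receptors Fzd8 from 82.8 ± 4.89 to 495 ± 82.8 and Fzd3 from 18.7 ± 5.44 to 171 ± 24.2. Tcf7, a pathway factor, fell (98.9 to 48.8) and Wnt4, the most abundant ligand, stood at 10398 to 8263 without a call. In the BMP and TGF-beta group 21 of 39 were higher and 11 lower. The receptor Bmpr1b rose from 148 ± 31.6 to 970.0 ± 168. Id3 (86.2, 78.99 and 99.7 on day 3 and 0.991, 9.04 and 4.92 on day 5; log2 difference −4.18, and −3.53 without day 5 replicate 1) and Id1 (658 to 205), which BMP signals induce, fell. Of 37 Notch genes 20 were higher and 1 lower (2 without day 3 replicate 2 or day 5 replicate 1, 5 with the trend removed), with a median of 0.40 (0.39 with the trend removed). The ligand Dll1, carried by cells that turn ciliated, stood at 189, 218 and 259.5 on day 3 and 819, 724 and 623 on day 5 (log2 difference 1.70, SE 0.16, adjusted p = 5.5e-05). The target Hey1 rose from 388 ± 51.6 to 1418 ± 73.3, while Hes1 stood at 5974 to 6709.7 without a call (adjusted p = 0.012 after quantile normalization). Notch3, a receptor of early luminal precursors, stood at 591 ± 66.5 to 660.3 ± 154 (adjusted p = 0.50). The lower member, Nrarp (134 to 69.1), is an overlapped gene.

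Guidance genes known from neurons moved in both directions. Of 10 Slit and netrin pathway genes 8 were higher and 2 lower, of 26 semaphorin genes 8 were higher and 9 lower, and of 17 Eph genes 7 were higher and 3 lower (5 lower after quantile normalization or with the trend removed). The semaphorin shares lay close to those of all tested genes. Robo1 stood at 23.7, 30.8 and 23.7 on day 3 and 491, 296 and 289 on day 5 (log2 difference 3.70, SE 0.26, adjusted p = 1.1e-05). Its relative Robo3 stood at 107, 60.2 and 109.5 on day 3 and 0, 1.29 and 3.69 on day 5 (log2 difference −5.35, SE 0.56, adjusted p = 9.2e-05). Robo1 was thus higher and Robo3 lower in every day 5 library. Slit2, a Robo ligand, rose from 41.2 ± 16.1 to 153 ± 62.8. Among semaphorin genes Sema3d rose from 3.31 ± 2.87 to 318 ± 59.1 (log2 difference 6.58, and 5.72 without day 3 replicate 2), and the receptors Nrp1 (219.8 to 21.5) and Nrp2 (1711 to 218) fell.

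Transcription factor genes included an oxygen-regulated one at high level. Epas1 (ENSMUSG00000024140), the HIF-2 alpha subunit, stood at 4312, 5140.0 and 3846 on day 3 and 41844, 34812 and 33526 on day 5 (log2 difference 3.05, SE 0.15, adjusted p = 2.4e-06). Of 36 Fox, ETS, Grhl and related factors 21 were higher and 9 lower, with Elf3, abundant in barrier epithelia, at 13379, 12999 and 12733 on day 3 and 3502, 4263 and 4569.5 on day 5 (log2 difference −1.67, SE 0.12, adjusted p = 1.5e-05). Dlx3, a factor of squamous layers, had 210 reads on day 3 and 2 on day 5 (ratio 106, 95% counting interval 29.1 to 885; log2 difference −5.74, and −6.35 without day 5 replicate 2). Snai3 fell from 105 ± 5.50 to 4.27 ± 0.783 and Twist2 from 248 ± 46.3 to 34.3 ± 17.6. Among immediate early factors Fosb (6666 to 1291), Jund (8904 to 2513) and Atf3 (2561 to 702) fell while Egr1 (9007, 7229.9 and 10391 on day 3 and 18262, 19182 and 14373 on day 5) and Egr2 (45.6 to 398) rose. Klf15, which answers glucocorticoids, rose from 31.3 ± 4.96 to 333 ± 15.1. Of 37 nuclear receptors 21 were higher (13 without day 5 replicate 2) and 6 lower (median 0.50, 0.25 with the trend removed). Thrb, for thyroid hormone, rose from 62.6 ± 15.95 to 427 ± 36.2 and Nr3c2, for mineralocorticoids, from 64.8 ± 14.7 to 269 ± 54.2, and Esr1 fell (84.5 to 26.3). Of 25 clock genes 16 were higher and 5 lower. Per2, a repressor of the loop, stood at 361, 427 and 368 on day 3 and 1600.3, 1149 and 1005 on day 5 (log2 difference 1.67, SE 0.17, adjusted p = 8.8e-05), and Arntl, its activator, was higher too (287 to 830.0). Time of day at collection is not given in the labels, and its part was not tested.

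Of 30 retinoid genes 11 were higher and 9 lower, shares close to those of all tested genes. Crabp1, which binds retinoic acid, stood at 252, 199 and 264 on day 3 and 0.991, 0 and 3.69 on day 5 (log2 difference −6.82, SE 0.52, adjusted p = 1.8e-05). Rbp2, a retinol carrier, fell from 301 ± 85.6 to 12.4 ± 5.02 and the uptake receptor Stra6 from 1658 ± 103 to 197 ± 24.5. Adh1, which oxidizes retinol, rose from 299.6 ± 102 to 5164 ± 871 (log2 difference 4.15, SE 0.25, adjusted p = 5.7e-06) and Rbp4, the secreted carrier, from 12.97 ± 3.28 to 217 ± 49.5. The vitamin C transporters Slc23a1 (22.4 to 302) and Slc23a2 (142 to 804) rose.

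Of 95 ion and water transport genes 48 were higher and 24 lower, and of 91 G protein and cAMP genes 47 were higher and 17 lower. Kcnj13, a potassium channel, had 1 read on day 3 and 405 on day 5 (ratio 399, 95% counting interval 71.3 to 15816), while Kcnn4, a calcium-activated one, fell from 712 ± 33.5 to 99.1 ± 30.4. Aqp5, a water channel, stood at 60644, 57208 and 62819 on day 3 and 12164, 15205 and 16175 on day 5 (log2 difference −2.06, SE 0.16, adjusted p = 2e-05), and Scnn1g, of the sodium channel, rose (144 to 585). Gna14, a G protein subunit, stood at 7.49, 2.68 and 4.93 on day 3 and 720.4, 682 and 721 on day 5 (log2 difference 6.96, SE 0.31, adjusted p = 1.7e-06). Akap12, a kinase scaffold, stood at 363, 264 and 473 on day 3 and 38.6, 34.9 and 39.4 on day 5 (log2 difference −3.21, SE 0.24, adjusted p = 1.4e-05).

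Immune genes moved in both directions. The interferon list had 22 of 98 higher and 20 lower, both shares below those of all tested genes. Its median was −0.01 (between −0.10 and 0.11 under other scalings). Oasl1 fell from 1607 ± 167 to 177 ± 60.8 (log2 difference −3.23, SE 0.22, adjusted p = 1e-05). Of 15 tested genes with Ifi before the first digit of the symbol 1 was higher and 9 lower (median −1.03, −0.58 with the trend removed). Of 48 cytokine and chemokine genes 17 were higher and 18 lower, shares close to those of all tested genes. Il33, an alarmin, stood at 3866, 4079.6 and 3606 on day 3 and 514, 367 and 423 on day 5. Il1a (319 to 37.2) and Il24 (158 to 1.91) fell as it did. Ccl28, a chemokine of mucosal surfaces, stood at 3.75, 8.03 and 7.89 on day 3 and 577, 426 and 480.0 on day 5, and Cxcl15, a chemokine of lung epithelium, rose too (27.1 to 1262). Of 24 complement and eicosanoid genes 15 were higher and 4 lower. Hpgd, which breaks down prostaglandins, rose from 5.87 ± 6.57 to 456 ± 65.8 (log2 difference 6.49, and 7.25 without day 3 replicate 2). Alox15, a lipoxygenase, rose from 29.4 ± 3.69 to 803 ± 56.1 and the complement protein C3 from 5119 ± 764 to 12695 ± 1013, and Ptgs2, which makes prostaglandins, fell from 1742 ± 619.5 to 530.5 ± 148. The kinase Ripk3, which starts necroptosis, stood at 990.5, 861 and 1044 on day 3 and 108, 156 and 153 on day 5 (log2 difference −2.80, SE 0.17, adjusted p = 5.9e-06). Mlkl, which carries it out, stood at 1022, 1051 and 1090.4 on day 3 and 129.8, 192 and 162 on day 5 (log2 difference −2.72, SE 0.16, adjusted p = 4.7e-06). Both fell well below their day 3 range.

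Families were also formed from gene symbols alone, by the letters before the first digit, which gave 170 families of at least 10 tested genes. Those with the largest share of higher members were Cfap (32 of 35), Fzd (9 of 10), Dnah (13 of 15) and Ces (9 of 11), followed by Efcab (8 of 10), Spata (10 of 13), Pik (10 of 14), Cyp (22 of 31), Dnajb (7 of 11) and Mfsd (12 of 19). With the trend removed the higher members numbered 31 for Cfap, 7 for Fzd, 12 for Dnah, 9 for Ces and 7 for Efcab. They numbered 9 for Spata, 7 for Pik, 20 for Cyp, 7 for Dnajb and 9 for Mfsd. Cfap and Dnah hold members below 10 normalized counts in all day 3 libraries, which could only come out higher. In the Pik family, kinases of membrane phosphoinositides, the median difference was 0.36, and Pik3r1, a regulatory subunit, rose from 1140.0 ± 65.3 to 3294 ± 415. Dnajb13, a radial spoke protein, led the Dnajb chaperones (8.71 to 230.2), and Dnajb1, the stress-inducible one, rose from 2258 ± 138 to 6840.3 ± 796. Of the Mfsd transporters Mfsd4a rose (28.8 to 208) and Mfsd2a, which imports lysolipids, fell (249 to 88.9). Among the families with the largest share of lower members Rpl (146 of 152) and Rps (103 of 116) consisted mostly of pseudogenes, 103 and 71 of them, and Rpsa-ps (10 of 10) of nothing else. The others were Ndufa (13 of 14), Ndufb (11 of 12), Mcm (9 of 10), Ndufs (9 of 10), Mrps (27 of 31), Mrpl (44 of 51) and Psmd (12 of 14). With the trend removed the lower members numbered 106 for Rpl, 85 for Rps, 10 for Rpsa-ps, 10 for Ndufa and 10 for Ndufb. They numbered 9 for Mcm, 9 for Ndufs, 26 for Mrps, 42 for Mrpl and 13 for Psmd. Mcm9, which serves repair rather than replication licensing, was the Mcm member called higher (195 to 264), a call that was lost without any library but day 5 replicate 3 (adjusted p 0.056 to 0.12), after quantile normalization (0.17) or with the trend removed (0.32).

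Several of the largest changes lay outside the lists. Lrrc23, a radial spoke protein, had 2 reads on day 3 and 4788 on day 5 (ratio 2361, 95% counting interval 653 to 19503), and Nme9, a thioredoxin-domain protein, none and 1157, at least 380.4-fold higher. Ccdc153, a coiled-coil protein, stood at 3.75, 6.69 and 0 on day 3 and 1128, 1324 and 1612 on day 5 (log2 difference 8.66, SE 0.65, adjusted p = 1.7e-05; 9.27 without day 3 replicate 2 and 7.79 without day 3 replicate 3). B3galt2, a galactosyltransferase, had 1 read and 1255 reads (ratio 1238, 95% counting interval 222 to 48929). Pon1, a lactonase of secreted lipoprotein, stood at 0, 5.36 and 1.97 on day 3 and 2385, 2159 and 2678 on day 5 (log2 difference 9.81, SE 0.57, adjusted p = 4.8e-06; 9.11 and 10.44 without day 3 replicate 1 and 2). Sec14l3, a lipid-binding protein, stood at 6.25, 6.69 and 1.97 on day 3 and 5319, 3218 and 2544 on day 5 (log2 difference 9.32, SE 0.41, adjusted p = 1.5e-06). Among the falls Myl7, a myosin light chain known from heart atrium, stood at 786, 647 and 608 on day 3 and 6.94, 19.4 and 14.8 on day 5 (log2 difference −5.63, SE 0.34, adjusted p = 5.5e-06). Klra4 stood at 125 to 1.23 (log2 difference −6.14, and −6.88 without day 5 replicate 3) and the unnamed transcript 4930461G14Rik at 438 to 4.43. Gm6093 had 385 reads on day 3 and none on day 5, at least 130.1-fold lower. H19, an imprinted noncoding RNA, fell from 64.6 ± 9.88 to 4.80 ± 2.57.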

How the data were processed

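RNA sequencing libraries of primary mouse tracheal basal cells were compared between day 3 and day 5, 3 libraries each, and the 3 day 1 libraries of the series entered only an alternative fit. Per the submitters' processing notes the authors used HISAT2 2.1.0, DESeq2 1.36.0 and the build GRCm39. For the read counter, the annotation and the strand setting the sources used here give nothing. The deposited values are log2 normalized counts (counts divided by size factors), in which a text entry stands for 0 counts. They were returned to normalized counts, rows repeating a gene identifier were dropped, and genes with at least 10 in at least 3 of 6 libraries were kept. Whole reads were recovered from the smallest steps and used only for genes with at most 3 reads in a day (exact 95% counting intervals, which cover counting error only; floor of 3 reads over the group).

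limma 3.58.1 in R 4.3.3 was run on log2(normalized count + 1) with a mean-variance trend, two-sided, with Benjamini-Hochberg adjustment at 0.05 over all tested genes; this scale understates changes of low genes. The test was also run on simulated data. Transcript length, GC and overlaps came from GENCODE M21 (GRCm38), matched by gene identifier for 98.5% of tested genes, and a smooth in length and GC was fitted with mgcv 1.9.3. Of 4031 entries in 57 gene lists 4024 matched, 16 of them through an older symbol. The members and lists were chosen with earlier results of these data known, so no p is given for a list, and lists are described by counts and medians. Genes were named by a rule: 12 fixed genes, the 12 largest rises and falls, and per list and role up to 3 rises, 3 falls and the most abundant member, with exceptions of 5 or fewer. A selection of these is described, some genes are not reported here, and marker genes, genes with printed promoters and the claudins Cldn4 and Cldn7 were added after their values were seen. Alternatives covered pseudocount, filter, scaling, fit, a replicate block, the length and GC trend, and leaving out each library. Replicates with the same number did not deviate together (correlations −0.289, 0.095 and −0.359), so numbers were not taken as pairs.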

Additional observations from a re-analysis of the deposited data

How the results depend on the processing

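Under the 20 alternatives the number of higher genes ran from 4427 to 6669 and that of lower genes from 4480 to 5816, all within 1.5 times the reported 5580 and 5335. With a replicate block 4910 genes were higher and 4668 lower, and with the block and the length and GC trend removed 4637 and 5221. Same-numbered libraries did not deviate together, so the block rests on a shared number only. Leaving out each library gave 4698 to 5559 higher and 4480 to 5245 lower. Upper-quartile scaling moved the median of all genes to 0.16 and the split to 6420 higher and 4594 lower, quantile normalization gave 5201 and 5282, and the trend correction 5162 and 5816. List medians changed sign in some alternative for 17 of 57 lists, whose reported medians lay between −0.21 and 0.38. Removing the trend turned 2 named values, with or without the replicate block, Ift43 to 0.23 and Xist to −0.60, and the cause was not tested. Quantile normalization ended 8 calls of named genes (Krt8, Itga6, Tfrc, E2f4, Ift27, Kif20a, Mcm9 and Itgb2l), and the replicate block 10 (E2f4, Ift27, Ift43, Kif20a, Mcm9, Aldoc, Alox5ap, Ngfr, Psmd1 and mt-Co1). Genes of a few reads are limited by depth.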
